A study of Mus musculus with 6 samples.

Results

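The genes described are 10 chaperones and folding enzymes of the endoplasmic reticulum (ER): Hspa5, Hsp90b1, Pdia3, Pdia4, Pdia6, Hyou1, Calr, Dnajb11, Sdf2l1 and Manf. They were chosen by name as targets of the transcription factors ATF6 and XBP1, and 10 of 10 were found among the 24982 rows of the authors' deposited table. RNA came from cumulus granulosa cells of Kun-Ming mice, which surround the oocyte in the follicle. The series compared 3 libraries labelled control with 3 labelled Atg5-KD, whose cells received short hairpin RNAs directed at Atg5, a gene needed to build autophagosomes. What the control cells received, the promoter driving the hairpins and the age of the mice are not given in the sources used here. The labels do not tell whether the 3 libraries of a group are separate cultures or animals, and p-values therefore reflect only the spread among libraries, which could be technical.

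Proteins that are secreted or sit in membranes fold inside the ER, where HSP70 and HSP90 chaperones hold them, lectins read their sugar chains and disulfide isomerases join their cysteines. When unfolded protein builds up, the sensors ATF6, IRE1 and PERK start the unfolded protein response. Cleaved ATF6 and spliced XBP1 then switch on the chaperone genes, ATF6 through the ER stress response element (ERSE), a CCAAT box that NF-Y binds followed after a fixed gap by the ATF6 site CCACG. Granulosa cells secrete inhibins, activins, follistatin and matrix, all of which pass through this machinery.

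The promoter sequences are shown because this element is what the chaperone genes are known to share. RefSeq windows (build GRCm38.p6) from 250 bases before to 50 bases after the transcription start were matched for 8 of the 10 genes, and Hyou1 and Manf had no entry. A complete ERSE, taken as CCAAT, 9 bases of any kind and CCACG on either strand, stood in 4 of the 8 windows, against 0.119% of all 32851 windows. The genes were chosen as targets of ATF6 and XBP1, so this contrast is a description and no test. In the lines below the element is in capitals, with 5 flanking bases on each side, read 5′ to 3′ on the strand of the gene. An element in the opposite orientation therefore reads CGTGG first and ATTGG last.
Hspa5, chr2:34772020-34772048, plus strand: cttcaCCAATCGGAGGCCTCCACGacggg
Pdia6, chr12:17266486-17266514, plus strand: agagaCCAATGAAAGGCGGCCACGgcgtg
Calr, chr8:84847070-84847098, minus strand: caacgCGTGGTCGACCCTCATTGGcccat
Hsp90b1 carried 2 complete elements in opposite orientations. Its stretch of 134 bases, from base -217 to base -84 before the start, holds both.
Hsp90b1, chr10:86705528-86705661, minus strand: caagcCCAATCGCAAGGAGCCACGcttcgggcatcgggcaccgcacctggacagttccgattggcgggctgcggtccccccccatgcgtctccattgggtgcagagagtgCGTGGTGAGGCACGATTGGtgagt
With at most 1 mismatch in the fixed letters, an ERSE-like sequence stood in 6 of 8 windows against 1.5% of all windows. Pdia3 and Pdia4 were the added genes, and capitals mark the same 19 bases. Hsp90b1 held a further such sequence, from base -172 to base -154, left in lower case in its stretch above. For Pdia4, alone of the 8, the first bases after the start were not found in a GENCODE transcript of the gene.
Pdia3, chr2:121413868-121413896, plus strand: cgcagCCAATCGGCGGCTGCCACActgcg
Pdia4, chr6:47813597-47813625, minus strand: aaccgAGTGGCAGCCCGTGATTGGtggtc
The shorter ERSE-II, taken as ATTGG, 1 base of any kind and CCACG on either strand, stood in Dnajb11 alone among the 8, 8 to 18 bases after the start, and in 0.0365% of all windows. The XBP1 motif TGACGTGG stood on neither strand of the 8 windows (0.676% of all windows). The Sdf2l1 window held a CCAAT box, as did all 8 (37.4% of all windows), with no match to the longer motifs. A match describes letters and is no measurement of binding.
Dnajb11, chr16:22857847-22857867, plus strand: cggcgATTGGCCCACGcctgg

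The authors' deposited table gives for each gene a base mean, which is the mean over all 6 libraries of counts divided by a size factor, and a log2 fold change with its standard error (SE) and Wald test. Values per library were not analysed here, so the depth of each library is unknown. The ribosomal RNA locus Rn45s makes up 10.4% of the summed base means. The direction, Atg5-KD over control, was read from the order of groups in the table's name. Atg5 gave no check of it, with a log2 fold change of -0.06 ± 0.14 (SE, adjusted p = 0.822) in the authors' deposited table, and in the other reading each fall below would be a rise. Granulosa markers were present, with base means in the authors' deposited table of 30063 for Inha, 37682 for Gja1 and 1816 for Foxl2. Base means in the authors' deposited table were low for other granulosa genes, 93.4 for Fshr, 6.07 for Amh and 2.34 for the aromatase gene Cyp19a1. The 7 tested oocyte markers summed to an estimated 102 normalized counts in control and 113 in Atg5-KD, with 0 called (also 0 at an unadjusted p under 0.05).

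Most of the ER chaperones were modestly lower in Atg5-KD than in control. By the Wald test of the authors' deposited table, 6 of 10 were lower at an adjusted p under 0.05 and 0 were higher (8 and 0 at an unadjusted p under 0.05), where 10.5% of the 14835 tested genes were called lower and 10.4% higher. Among tested genes with a base mean of at least 1000, which 9 of the 10 exceed, 16.8% were called lower. All 10 log2 fold changes were below 0, as were 49.6% of those of all tested genes. The median log2 fold change of the authors' deposited table was -0.30 over the 10 and 0.00 over all tested genes. Summed over the 10 genes, the estimated level was 82683 normalized counts in control and 70186 in Atg5-KD, a difference of -15.1% that was not tested. These group levels are estimates, since each was computed from the base mean and the fold change. In RNA of a whole cell population, fewer cells of a type and less RNA per cell cannot be told apart.

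**Figure D1:**
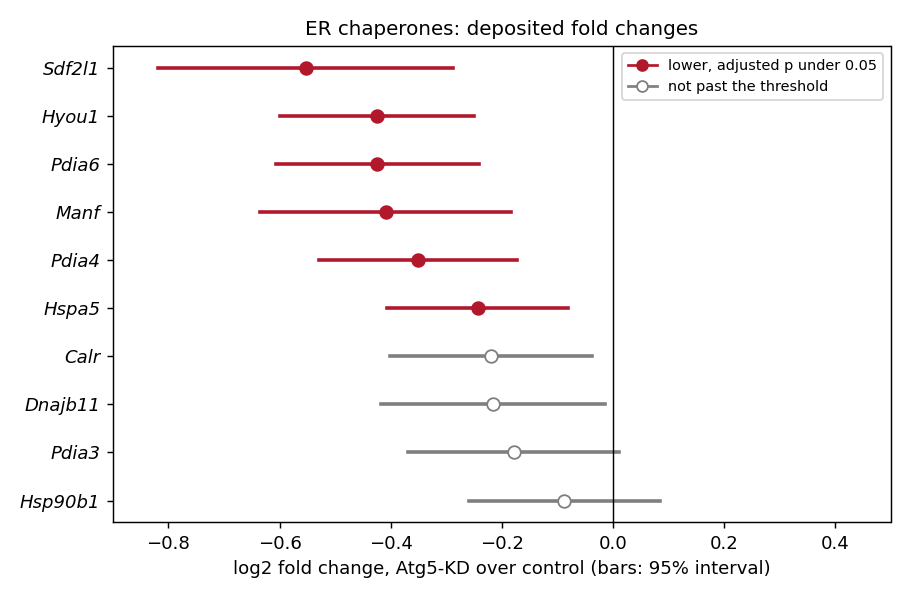
Log2 fold change of each of the 10 ER chaperones, Atg5-KD over control, in the authors' deposited table (x axis), with bars for the 95% Wald interval. Filled red points mark the 6 genes called lower and open points the other 4, and the points run from -0.55 for Sdf2l1 to -0.09 for Hsp90b1.

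Among the HSP70 chaperone and its helpers, 4 of 5 were called lower, and Dnajb11 was below 0 but did not pass. Hspa5 encodes BiP, the HSP70 of the ER, which binds exposed hydrophobic stretches and also holds the stress sensors inactive (NCBI gene 14828, chromosome 2, 34772090 to 34776529; here and below RefSeq positions on GRCm38.p6, the assembly that mm10 names). Its estimated level was 15928 normalized counts in control and 13455 in Atg5-KD. The log2 fold change of Hspa5 was -0.24 ± 0.08 (SE, Wald adjusted p = 0.0203) in the authors' deposited table, or -15.5% with a 95% interval from -24.5% to -5.45%. This was the smallest of the called falls.

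Hyou1 encodes GRP170, a large HSP70-like protein that frees BiP of its nucleotide (gene 12282, chromosome 9, 44379490 to 44392369). It went from an estimated 5917 to 4409.7 normalized counts, a log2 fold change of -0.42 ± 0.09 (SE, Wald adjusted p = 3.65e-05) in the authors' deposited table, the smallest adjusted p of the 10. Sdf2l1 encodes a small ER protein that works with the J protein Dnajb11 (gene 64136, chromosome 16, 17130138 to 17132383). It had the largest fall and the lowest level, from an estimated 526 to 359 normalized counts. Its log2 fold change per the authors' deposited table was -0.55 ± 0.14 (SE, Wald adjusted p = 0.000577), and its 95% interval ran from -0.82 to -0.29.

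Manf encodes a secreted, stress-induced factor that binds BiP (gene 74840, chromosome 9, 106888753 to 106891938). Its estimated level went from 3277 to 2469 normalized counts and its log2 fold change was -0.41 ± 0.12 (SE, Wald adjusted p = 0.00355) in the authors' deposited table. Dnajb11, the J protein ERdj3 that brings clients to BiP, did not pass (gene 67838, chromosome 16, 22857845 to 22879634). It stood at an estimated 2009.8 normalized counts in control and 1731 in Atg5-KD, with a log2 fold change of -0.22 ± 0.10 (SE, Wald adjusted p = 0.127) in the authors' deposited table. The difference between Dnajb11 and its partner Sdf2l1 was not tested, because genes of the same libraries share errors that the table does not give.

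Of the 3 disulfide isomerases, Pdia6 and Pdia4 were called lower, and Pdia3 was below 0 but did not pass the test. Pdia6, also called P5, acts on BiP clients and on the sensor IRE1 (gene 71853, chromosome 12, 17266589 to 17284785). Its estimated level went from 5553 to 4139.6 normalized counts, with a log2 fold change of -0.42 ± 0.09 (SE, Wald adjusted p = 8.88e-05) in the authors' deposited table. Pdia4, also called ERp72 (gene 12304, chromosome 6, 47796141 to 47813512), went from an estimated 4819 to 3778. Its log2 fold change per the authors' deposited table was -0.35 ± 0.09 (SE, Wald adjusted p = 0.00131), or -21.6%. Pdia3, or ERp57, works on glycoproteins that the lectins calreticulin and calnexin hold (gene 14827, chromosome 2, 121413902 to 121438687). It stood at an estimated 12828.5 normalized counts in control and 11334 in Atg5-KD, with a log2 fold change of -0.18 ± 0.10 (SE, Wald adjusted p = 0.190) in the authors' deposited table.

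The lectin and the HSP90 chaperone did not pass either. Calr encodes calreticulin, which binds glycoproteins and stores calcium (gene 12317, chromosome 8, 84842088 to 84846931). It was the most abundant of the 10, at an estimated 17603 normalized counts in control and 15122 in Atg5-KD, with a log2 fold change of -0.22 ± 0.09 (SE, Wald adjusted p = 0.0766) in the authors' deposited table. Hsp90b1 encodes GRP94, the HSP90 of the ER, which folds integrins and Toll-like receptors (gene 22027, chromosome 10, 86690841 to 86705444). It had the smallest difference, from an estimated 14222 to 13388.5 normalized counts, and a log2 fold change of -0.09 ± 0.09 (SE, Wald adjusted p = 0.543) in the authors' deposited table. As a percentage its 95% interval covered -16.5% to 6.09%.

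A gene with the SE of Hsp90b1 needed a log2 fold change of 0.23 in size to be called, and with the SE of Sdf2l1 one of 0.35. Intervals of neighbouring genes overlapped throughout the order from Sdf2l1, Hyou1, Pdia6, Manf, Pdia4 and Hspa5 to Calr, Dnajb11, Pdia3 and Hsp90b1. The intervals of Sdf2l1 and Hsp90b1, at the ends of the order, did not overlap (-0.82 to -0.29 and -0.26 to 0.09), and no difference between genes was tested. Of the 4 genes with a complete ERSE in the window shown above, Pdia6 and Hspa5 were called lower. Hsp90b1, the gene with 2 complete elements, had the smallest log2 fold change, while Sdf2l1, with none, had the largest fall in the authors' deposited table. These ends of the order changed once the trend in GC content and length described below was removed. Pdia6, with a complete element, then had the largest fall at -0.42, and Sdf2l1 stood at -0.41. Dnajb11 had the smallest at -0.17, with Hsp90b1 at -0.22. A relation between the element and the fold change was not tested.

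**Figure D2:**
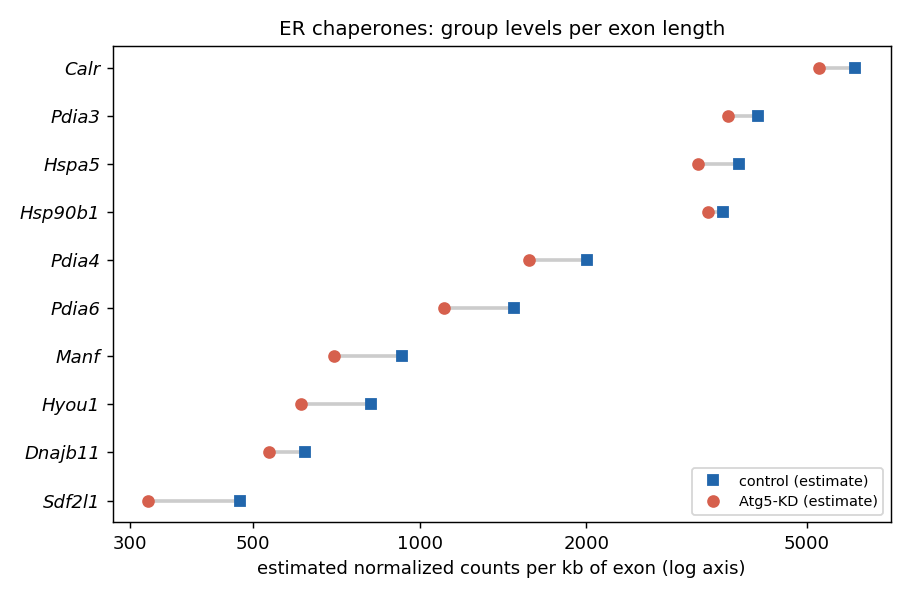
Estimated level of each gene per kilobase of exon in control (squares) and Atg5-KD (circles), on a log axis, ordered by the control level. All 10 circles lie to the left of their squares, and Calr, Pdia3, Hspa5 and Hsp90b1 stand above the other 6.

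Per kilobase of exon (union of the GENCODE M21 exons), the 10 genes spanned estimated control levels from 475 normalized counts for Sdf2l1 to 6112 for Calr. Pdia3 at 4087, Hspa5 at 3766 and Hsp90b1 at 3527 per kilobase followed Calr closely. Pdia4 stood at 2009, Pdia6 at 1483, Manf at 929.8, Hyou1 at 818 and Dnajb11 at 621 per kilobase. The 4 highest levels per kilobase went with log2 fold changes from -0.24 to -0.09 per the authors' deposited table, and the 6 lower levels with -0.55 to -0.22. In Atg5-KD the estimates per kilobase were 5251 for Calr, 3611 for Pdia3, 3321 for Hsp90b1 and 3182 for Hspa5, so Hsp90b1 stood above Hspa5 there, a change of order that was not tested. The annotation used for counting and its strand setting are not given in the sources used here. In GENCODE M21, exons of 4 of the 10 overlap those of a gene on the opposite strand, where reads cannot be assigned without strand. Hsp90b1 shares 415 bases with 1810014B01Rik, Manf 166 with 4930524O07Rik and 146 with Dcaf1, Pdia6 50 with Atp6v1c2 and Pdia3 18 with Catsper2.

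**Figure D3:**
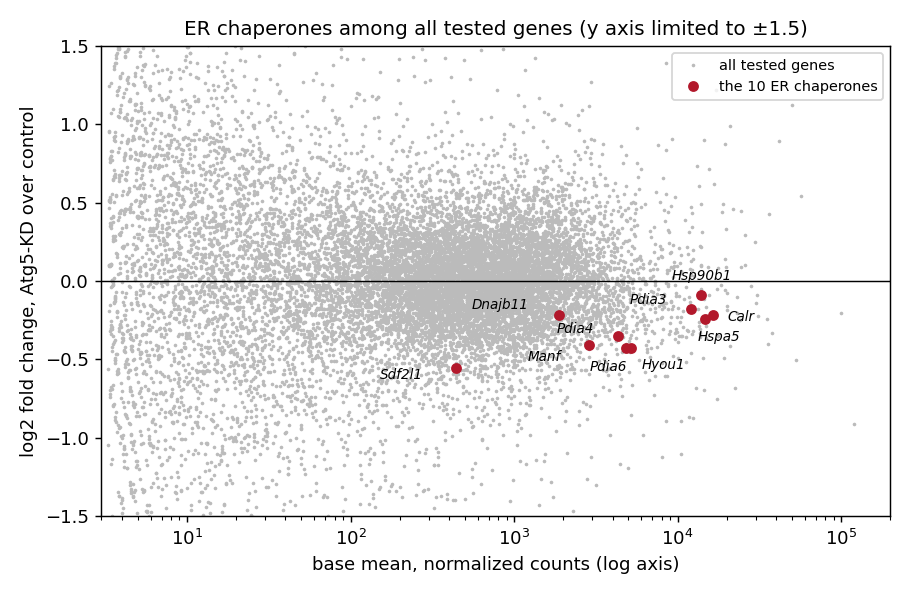
Log2 fold change, Atg5-KD over control (y axis, limited to 1.5 in each direction, which leaves out 552 genes, among them Rn45s, which also lies beyond the x axis), against base mean on a log axis for all tested genes (grey) and the 10 ER chaperones (red), from the authors' deposited table. The 10 sit below 0, at base means from 443 to 16362.5.

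The calls were compared under other scalings, because Rn45s, at a log2 fold change of 4.24 in the authors' deposited table, weighs on any total of reads. Scaled to all reads, every log2 fold change shifted by -0.30, and 10 of the 10 chaperones were then called lower, with a median of -0.60. That setting called 38.7% of all tested genes lower and 3.6% higher. Relative to the shift the chaperones kept their deposited values. Left out of the total, Rn45s gave a shift of -0.03, and Calr then joined the called genes (adjusted p = 0.0354) beside a background of 12.2%. With a minimum of 1.5-fold, 0 of 10 remained called lower, against 4.31% of tested genes, since Sdf2l1, with the largest fall, was 1.47-fold lower. At an adjusted p under 0.01, 5 of 10 were lower beside a background of 6.94%, Hspa5 being the gene lost. The 6 calls were unchanged with no filter on base mean (background 7.54%), with a base mean of at least 50 (13.3%) and after centring on the median of abundant genes (10.4%).

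Fold changes in these data moved with base composition. Across 14680 tested genes with a transcript sequence, GC content and the deposited log2 fold change had a Spearman correlation of -0.36, and of -0.52 across the 3273 with a base mean of at least 1000, the class of 9 of the 10 chaperones. Both are given as a description of genes that share libraries. The chaperones had a median GC content of 49.5%, near the 49.8% of all tested genes. After subtraction of the GC and length trend, 6 of 10 were called lower, none with a changed call, beside a background of 7.68% lower and 6.25% higher, and the median was -0.34. Hsp90b1, the gene with the lowest GC content at 42.1%, went from -0.09 to -0.22 (adjusted p = 0.0705). Sdf2l1, the highest at 56.7%, went from -0.55 to -0.41 (adjusted p = 0.0243). The 10 genes then lay closer together, between -0.42 and -0.17.

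**Figure D4:**
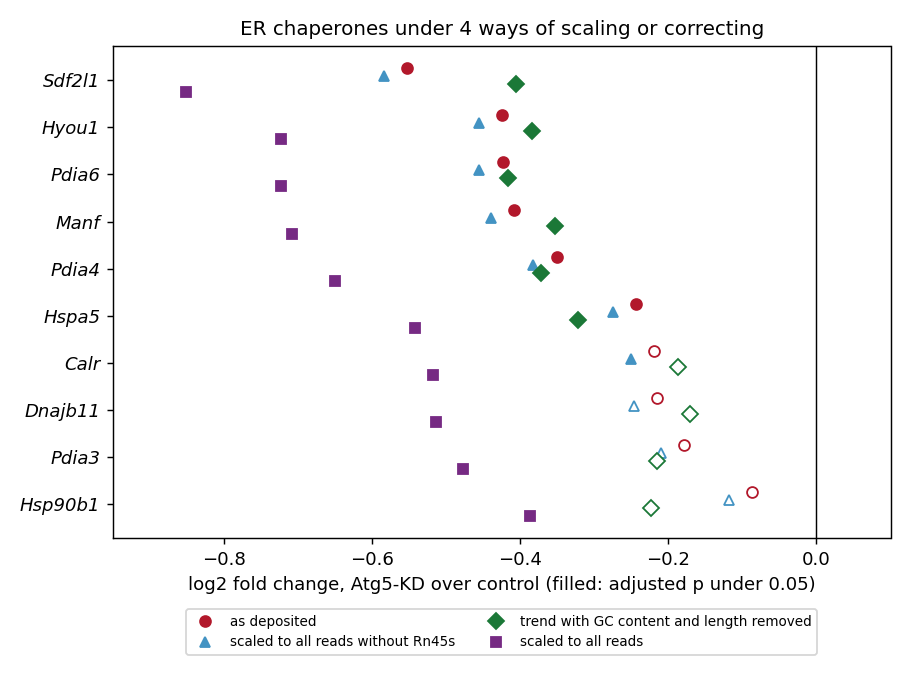
Log2 fold change of each ER chaperone (x axis) as deposited and under 3 alternatives, each with its own symbol, filled where the adjusted p is under 0.05. All values are below 0, and with the GC and length trend removed the 10 genes span -0.42 to -0.17.

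Other folding factors of the ER were a mixture of called and uncalled genes, and their counts are to be read beside the 10.5% lower and 10.4% higher of all tested genes. Counts with the GC and length trend removed, here and below, are to be read beside 7.68% lower and 6.25% higher. Of 22 other chaperones and cofactors tested, 8 were called lower and 0 higher according to the authors' deposited table, with a median log2 fold change of -0.12. The called genes included Serpinh1, the collagen chaperone HSP47, at -0.35 ± 0.09 (SE), the prolyl isomerases Fkbp9 at -0.57 ± 0.09 (SE), Fkbp10 at -0.42 ± 0.10 (SE) and Fkbp7 at -0.64 ± 0.19 (SE), Creld2 at -0.44 ± 0.13 (SE), and Bag2 at -0.43 ± 0.12 (SE) in the authors' deposited table. Bag2 is a cofactor of cytosolic HSP70 and no ER protein, so these counts include 1 gene from outside the ER. Cofactors of BiP, named after their values were seen, did not pass in the authors' deposited table. Below 0 were Sil1 at -0.29, Dnajb9 at -0.14 and Dnajc3 at -0.09. Above 0 were the J proteins Dnajc1 at 0.22 and Sec63 at 0.16. With the GC and length trend removed, 3 of the 22 were lower (Fkbp7, Fkbp9 and Bag2) and 1 (Selenom) was higher.

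Among 19 other disulfide enzymes, 4 were lower and 1 higher according to the authors' deposited table, with a median of -0.12. Txndc5, or ERp46, fell by 0.60 on the log2 scale (SE 0.08, Wald adjusted p = 3.72e-11) and P4hb, the founding isomerase PDI, by 0.32 (SE 0.08, Wald adjusted p = 0.00128) in the authors' deposited table. Qsox1 and Prdx4, which make or use oxidizing power, stood at -0.41 and -0.43, and the membrane-bound Tmx3 was higher at 0.37 in the authors' deposited table. With the trend removed P4hb and Tmx3 no longer passed (adjusted p = 0.0908 and 0.598), and the list held 4 lower and 0 higher. In the glycoprotein folding cycle 2 of 10 genes were lower and 0 higher, with a median of -0.15 in the authors' deposited table. They were Prkcsh at -0.41 and Mogs at -0.36, a subunit of glucosidase II and glucosidase I, and with the trend removed 0 of 10 passed. Canx, the membrane-bound relative of Calr, named after its value was seen, was at 0.07 ± 0.09 (SE) in the authors' deposited table.

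In ER-associated degradation, which sends misfolded proteins to the proteasome, 3 of 25 genes were lower and 1 higher according to the authors' deposited table, with a median of -0.05. These shares, 12% and 4%, lie near and below the 10.5% lower and 10.4% higher of all tested genes. Derl3, a derlin of the retrotranslocation channel, had the largest fall of all genes in the ER lists. Its base mean was 2279.5 and its log2 fold change -1.46 ± 0.14 (SE, Wald adjusted p = 1.54e-23) in the authors' deposited table, and it stood at -1.29 with the trend removed. Os9, a lectin of the same pathway, was at -0.43, the ubiquitin ligase Rnf5 at -0.31 and the mannosidase-like Edem3 at 0.39 in the authors' deposited table. Os9 passed with the trend removed, and Rnf5 and Edem3 did not (adjusted p = 0.145 and 0.352).

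Of 26 genes of the translocon, signal peptidase and oligosaccharyl transferase, 5 were lower and 0 higher, with a median of -0.12 in the authors' deposited table. They were Ssr2 at -0.54, Ddost at -0.41, Rpn2 at -0.31, Sec11a at -0.28 and the channel subunit Sec61a1 at -0.26 in the authors' deposited table. With the trend removed 6 of 26 were lower, Ssr2 and Sec11a among them, while Ddost, Rpn2 and Sec61a1 did not pass. ER-Golgi transport had 3 of 22 lower and 2 higher, with a median of -0.02 in the authors' deposited table. The higher genes had the smallest adjusted p-values, Copb1, a subunit of the COPI coat, at 0.35 (Wald adjusted p = 0.00277) and the golgin Golgb1 at 0.39 (Wald adjusted p = 0.00641) in the authors' deposited table. The lower genes were Sec31a of the COPII coat at -0.26, the cargo receptor Surf4 at -0.24 and Kdelr2, a receptor that returns ER chaperones from the Golgi, at -0.29 in the authors' deposited table. After removal of the trend 2 of 22 were lower, Kdelr2 and Tmed10, and 0 were higher (background 7.68% and 6.25%). Kdelr1 at -0.27 and Kdelr3 at -0.24, named after their values were seen, did not pass in the authors' deposited table. In ER calcium handling 3 of 14 were lower and 1 higher, with a median of -0.12 in the authors' deposited table. The EF-hand proteins Rcn3 and Rcn1 were at -0.70 and -0.40, Stim1, which senses ER calcium, at -0.31 and the release channel Itpr2 at 0.55 in the authors' deposited table. Stim1 and Itpr2 no longer passed with the trend removed (adjusted p = 0.276 and 0.0942), and Rcn2 was lower beside Rcn1 and Rcn3. Scaled to all reads, the counts called lower rose to 14 of 22 other chaperones, 13 of 19 disulfide enzymes, 9 of 10 glycoprotein genes, 20 of 25 degradation genes, 22 of 26 translocon genes, 16 of 22 transport genes and 10 of 14 calcium genes, beside the 38.7% of all tested genes.

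**Figure D5:**
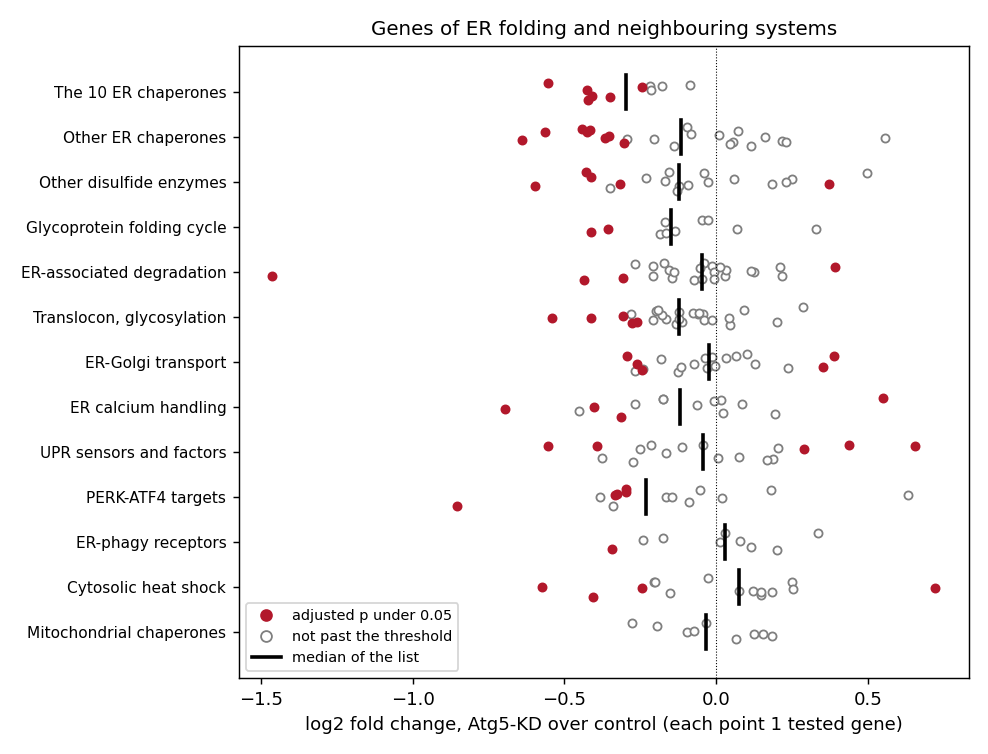
Log2 fold change, Atg5-KD over control, of each tested gene (points) in the 10 ER chaperones and 12 related lists (rows), from the authors' deposited table, with filled points at an adjusted p under 0.05 and black bars at the median of each list. The bar of the 10 chaperones lies at -0.30, those of the 12 other lists between -0.23 and 0.07.

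Of 17 tested sensors and factors that control these genes, 3 were higher and 2 lower according to the authors' deposited table, with a median of -0.04. These shares, 17.6% and 11.8%, stand beside 10.4% higher and 10.5% lower of all tested genes. Atf6 stood at 0.19 ± 0.12 (SE, Wald adjusted p = 0.268) and its relative Atf6b fell by 0.56 on the log2 scale (SE 0.10, Wald adjusted p = 2.60e-06) in the authors' deposited table. Xbp1 was at -0.25 ± 0.10 (SE, Wald adjusted p = 0.0508) in the authors' deposited table, which does not tell spliced from unspliced transcripts. Ern1, which encodes IRE1, was at 0.17, the PERK gene Eif2ak3 at 0.01 and Atf4 at -0.11 in the authors' deposited table, and none of these passed. Of the proteases that cut ATF6, Mbtps2 rose by 0.44 (Wald adjusted p = 0.00167) and Mbtps1 stood at -0.21 (Wald adjusted p = 0.0717) in the authors' deposited table. Creb3 at 0.29 and Creb3l1 at -0.39, ER-anchored factors activated by the same cleavage, were higher and lower according to the authors' deposited table. The NF-Y subunits Nfya at -0.16, Nfyb at 0.08 and Nfyc at -0.27 did not pass in the authors' deposited table. With the trend removed, Mbtps2 and Creb3l1 no longer passed (adjusted p = 0.192 and 0.540) and Mbtps1 did (adjusted p = 0.0205).

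Ddit3, the stress factor CHOP, rose, at 0.66 ± 0.15 (SE, Wald adjusted p = 0.000226) in the authors' deposited table at a base mean of 300.3. Of 14 other targets of the PERK and ATF4 branch tested, 5 were lower and 0 higher according to the authors' deposited table (background 10.5% and 10.4%). Their median was -0.23 in the authors' deposited table and became -0.07 with the trend removed. Nupr1 was at -0.85, Psat1 and Phgdh of serine synthesis both at -0.33, and Asns and Atf5 both at -0.30 in the authors' deposited table. With the trend removed Atf5 was at -0.01 and Phgdh at -0.13 and neither passed (adjusted p = 0.976 and 0.508), while Nupr1, Psat1 and Asns did. Atf3, an early stress factor named after its value was seen, was at 0.63 (Wald adjusted p = 0.0522) in the authors' deposited table and passed as higher with the trend removed, at 0.71. Scaled to all reads, 1 of the 17 sensors and factors was higher and 9 were lower, and of the 14 targets 11 were lower. Of all tested genes, this scaling called 38.7% lower and 3.6% higher.

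Markers of some other cell types fell in the same comparison. Of 20 leukocyte markers, 13 were lower according to the authors' deposited table (background 10.5%), with a median log2 fold change of -1.84, and their summed estimate went from 2769.9 to 733 normalized counts. None of these markers was listed at 0, the lowest base mean being 3.60 for Cd74. Of 10 tested theca and stroma markers 7 were lower, with a summed estimate of 9726 in control and 5916 in Atg5-KD, among them Col1a1 at -1.10 ± 0.14 (SE) in the authors' deposited table. The theca genes Cyp17a1 and Insl3 of this list were not tested, with base means of 0.131 and 2.40 in the authors' deposited table. Of 9 tested smooth muscle markers 7 were lower and 1 higher according to the authors' deposited table, their sum going from 12599 to 5832. Of 8 endothelial markers 0 were called by DESeq2 in the authors' deposited table (1 lower at an unadjusted p under 0.05). Of 9 plasma cell markers 3 were tested and 0 called (1 lower at an unadjusted p under 0.05). The tested genes were Sdc1, Prdm1 and Cd79a, with base means of 8041, 34.9 and 8.19 in the authors' deposited table. Of the others, Jchain and Mzb1 had base means of 1.65 and 2.32 in the authors' deposited table, and Tnfrsf17 and Pou2af1 were listed at 0. The summed estimate of the 10 chaperones differed by -12497 normalized counts in the same comparison. Sums of markers do not tell how much chaperone RNA the marked cells held, so the sizes of these sums cannot be set against each other. The part of a changed cell mixture in the falls of the chaperones, and of the collagen-related folding genes Serpinh1 and Fkbp10, was not tested. Markers of the granulosa cells themselves also moved. Of 13 tested, the Wald test of the authors' deposited table called 6 lower (46.2%) and 2 higher (15.4%), beside 10.5% and 10.4% of all tested genes. The median log2 fold change of these granulosa markers was -0.26 in the authors' deposited table, near the -0.30 of the 10 chaperones. Their summed estimate went from 109221 to 102362 normalized counts. A difference between these markers and the chaperones was not tested.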

How the data were processed

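Per the submitters' processing notes, the tools were DESeq2 1.30.1, STAR, StringTie 2.1.4 and featureCounts 1.6.2 on build mm10, with no role or order given. A single table was used, the authors' comparison of 3 Atg5-KD with 3 control libraries, with DESeq2 column names per the file headers. The authors give the base mean as a signal, counts over size factors averaged over libraries. Fold changes and SEs were deposited as log2 values, Wald statistics as a score, and each p-value with a Benjamini-Hochberg adjusted value. Recomputed statistics, p-values and adjustments differed in 0 rows (tolerance 1e-06). Of 24982 rows, 14835 had an adjusted p. The table has 0 columns per library.

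Group estimates solve the base mean and fold change for 2 groups of equal size. Intervals are 95% normal intervals from the deposited SE. Alternatives shifted the fold changes, changed the filter or threshold, or subtracted a robust cubic trend in GC content and length of the longest GENCODE M21 transcript (98.96% of tested genes matched), and recomputed Wald tests with the deposited SE (Python 3.11.15, statsmodels 0.14.6, scipy 1.17.1). The scripts were tested on simulated data. Named genes were all 10 members, the sensors and factors, and up to 6 called genes per list with the smallest adjusted p (where none passed, the 2 with the highest base mean), with marker and interferon lists given by counts and levels. The members and lists were chosen with earlier results of these data known.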

Additional observations from a re-analysis of the deposited data

How the results depend on the processing

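Removal of the GC and length trend was the alternative that moved the 10 genes by different amounts, and under it all 10 log2 fold changes were below 0. The others leave the fold changes as they are or shift them by 1 constant, so they test no sign. The count called lower, 6 as deposited, was 10 when scaled to all reads, which also moved the median from -0.30 to -0.60, and 0 with a minimum of 1.5-fold. It was 7 when scaled to all reads without Rn45s, 5 at an adjusted p under 0.01, where Hspa5 was lost, and 6 under the other 4 alternatives. Of 13 wider lists, 12 had more genes called lower when scaled to all reads, and 6 had fewer and 2 more once the GC and length trend was removed. No paired analysis was possible because the table pools the libraries and holds no values per library. For the same reason leaving out each library and the edgeR and DESeq2 fits planned for counts were not run. At their errors, a chaperone needed a fall of 0.21 (Hspa5) to 0.35 (Sdf2l1) on the log2 scale to be called.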

Other observations

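Chaperones outside the ER moved in both directions or were not called. Of 15 cytosolic heat shock genes, 3 were lower and 1 higher according to the authors' deposited table (background 10.5% and 10.4%), with a median log2 fold change of 0.07. Hsp90ab1, the constitutive cytosolic HSP90, was lower at -0.24 ± 0.08 (SE) and Hspb8 higher at 0.72 ± 0.16 (SE), with Bag3 at -0.41 and Cryab at -0.57, in the authors' deposited table. Once the GC and length trend was removed the median turned to -0.11, Hsp90ab1 and Bag3 no longer passed (adjusted p = 0.112 and 0.237), Hspa8 and Hspa4 were lower and Hspb1 was higher. Scaled to all reads, 8 of 15 were lower with a median of -0.22, beside 38.7% of all tested genes. Of 9 mitochondrial chaperones and proteases, 0 passed the Wald test of DESeq2 in the authors' deposited table, with Hspd1 at 0.15 and Hspa9 at 0.19 (1 lower and 1 higher at an unadjusted p under 0.05). Scaled to all reads 5 of these 9 were lower, and without the GC and length trend Hspe1 was lower and Lonp1 higher. Of 9 receptors that deliver ER to autophagosomes, Retreg2 alone passed, at -0.34 ± 0.10 (SE) in the authors' deposited table, and 0 of 9 passed once the GC and length trend was removed. That share of 11.1% lower lies near the 10.5% of all tested genes. The median of the 9 was 0.03, with 3 below 0, in the authors' deposited table. All 15 interferon genes tested as a contrast were higher according to the authors' deposited table, with a median of 4.98.

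A search of all promoter windows for the complete ERSE, added after the fold changes had been seen, found 37 genes, 22 of which were tested. Of these 22, 5 were lower and 0 higher according to the authors' deposited table, with 15 below 0 and a median of -0.09, beside 10.5% lower, 10.4% higher and 49.6% below 0 among all tested genes. The 22 include 4 of the 10 chaperones, of which 2 were lower and 4 below 0. Outside the 10 chaperones, 18 were tested, with 11 below 0 and a median of -0.05 in the authors' deposited table. Of these 18, 3 were lower, Ptgdr2 at -2.69 ± 0.72 (SE), Derl3 and Creld2, while Canx, Dnajc3 and Syvn1 did not pass in the authors' deposited table. The elements of Derl3, Creld2 and Canx are shown, in capitals with 5 flanking bases (RefSeq, GRCm38.p6, strand of the gene), because these genes carry the same motif and differ in fold change.
Derl3, chr10:75893237-75893265, plus strand: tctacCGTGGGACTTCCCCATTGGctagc
Creld2, chr15:88819515-88819543, plus strand: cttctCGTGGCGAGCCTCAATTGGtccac
Canx, chr11:50325795-50325823, minus strand: attgaCCAATCACCACGCTCCACGaagaa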
